A study of Mus musculus with 3 samples.

Results

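Conventional dendritic cells that had not switched on the migration programme were picked out of whole dissociated 4T1 mammary tumours by their marker transcripts. They numbered 100 of 16353 kept barcodes: 32 of 6743 in the sgCPT1A library and 68 of 9610 in the sgVC library. A cell was taken with at least 3 UMIs (unique molecular identifiers, each standing for 1 captured transcript) summed over Flt3, Zbtb46, Xcr1, Clec9a and Cd209a, and with at least 1% of its UMIs from H2-Aa, H2-Ab1, H2-Eb1 and Cd74. It also had under 5 UMIs of Ccr7, Fscn1, Cacnb3 and Ccl22, the genes of migratory dendritic cells. Under 0.2% of its UMIs came from the C1q genes of macrophages and under 0.1% from the tumour genes Wfdc2, Krt8 and Krt18, and it had at most 1 UMI of the B cell genes Cd79a and Ms4a1. The cells were thus chosen by these measured values, which are given as description only.

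The tumours grew in female mice of 8 to 10 weeks, housed for 8 days as tumour bearers. The sgCPT1A tumours came from the 4T1-sgCPT1A line, whose genotype is given as a knockdown of CPT1A, the enzyme that starts long-chain fatty acid import into mitochondria, and the sgVC tumours from the 4T1-sgVC line, given as WT. 4T1 is a mouse mammary carcinoma line, and the guide belongs to the implanted line, whereas dendritic cells belong to the host. A file existed here for 1 library per genotype. A further sgCPT1A sample, called additional, had no file of its own, and whether its reads entered the sgCPT1A file is not known. Differences therefore carry no test, and all intervals are 95% intervals that cover counting error only. The number of tumours and mice behind a library was not given in the sources used here.

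Dendritic cells take up antigen, process it and show it to T cells on MHC molecules. Conventional dendritic cells fall into a type that carries Xcr1 and Clec9a, depends on Irf8 and Batf3 and is known for presenting captured antigen to CD8 T cells, and a type that carries Cd209a or Sirpa and is known for activating CD4 T cells. Monocytes that enter inflamed tissue can also acquire Cd209a and MHC class II. Once a dendritic cell matures it turns on Ccr7 and leaves for the lymph node.

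The sgCPT1A library had 7198 barcodes with a median of 2786 UMIs, and the sgVC library 9890 barcodes with a median of 10809. The dendritic cells themselves were of closer depth, with medians of 13609.5 UMIs and 3227 genes in sgCPT1A, against 10187 UMIs and 2711 genes in sgVC. The libraries shared 18 barcodes, of which 1 was an sgCPT1A dendritic cell and 0 were sgVC dendritic cells. The ribosomal RNA gene Rn18s-rs5 made up 25832 CPM (UMIs summed over the cells of a group and scaled to a fixed total) of the sgCPT1A dendritic cells, against 10921 CPM of the sgVC ones, and 30421 and 6798 CPM of all other kept cells of the same libraries. Its part in the ratios between libraries was not tested.

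How common these cells were depended on what they were counted against. They were 0.475% of kept cells in sgCPT1A (0.325 to 0.669) and 0.708% in sgVC (0.550 to 0.896), a log2 ratio of -0.58 with an interval of -1.23 to 0.05 that includes 0. Among cells with under 0.1% tumour genes the shares were 0.477% of 6703 in sgCPT1A and 1.31% of 5180 in sgVC, a log2 ratio of -1.46 (-2.11 to -0.83). Among cells with at least 1% MHC class II transcripts the order turned round, with 24.4% of 131 cells in sgCPT1A and 7.43% of 915 in sgVC, a log2 ratio of 1.72 (1.06 to 2.34). MHC class II-high macrophages, in that last denominator, were 10 cells in sgCPT1A and 272 in sgVC. Migratory dendritic cells were 12 in sgCPT1A and 53 in sgVC, which is 27.3% of migratory and conventional dendritic cells together in sgCPT1A and 43.8% in sgVC. The interval of that ratio also included 0, at -0.68 (-1.72 to 0.24) on the log2 scale.

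The marker limit had cells close to it on both sides. With all other limits met, 5 sgCPT1A and 9 sgVC cells had 2 marker UMIs and stayed out, and 2 sgCPT1A and 12 sgVC cells had 3 and were taken. At the migration limit, 1 cell in sgCPT1A and 1 in sgVC had 4 UMIs and were taken, and 0 in sgCPT1A and 2 in sgVC had 5 and stayed out. For MHC class II, 2 cells in each library lay between 0.5% and 1%.

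Flt3 and Zbtb46, receptor and transcription factor of the dendritic lineage, helped choose the cells and so are no check of the label. As a description, a UMI of either was found in 9 of 10 Xcr1/Clec9a cells in sgCPT1A and 31 of 37 in sgVC, and in 11 of 18 Cd209a cells in sgCPT1A and 16 of 29 in sgVC. Many Cd209a cells had monocyte transcripts, which the rule did not use. Ccr2, the receptor that brings monocytes out of the marrow, had a UMI in 13 of 18 Cd209a cells in sgCPT1A and 20 of 29 in sgVC. It was not confined to them, with a UMI in 4 of 10 Xcr1/Clec9a cells in sgCPT1A and 15 of 37 in sgVC. Fcgr1, a high-affinity antibody receptor of monocyte-derived cells that is counted below among the macrophage markers, had a UMI in 8 of 18 Cd209a cells in sgCPT1A and 9 of 29 in sgVC. In Xcr1/Clec9a cells it had a UMI in 0 of 10 in sgCPT1A and 3 of 37 in sgVC. Ly6c2, the marker of inflammatory monocytes, had 124 UMIs over 7 Cd209a cells in sgCPT1A and 8 UMIs over 5 Cd209a cells in sgVC. Of the 124, 73 were in 1 cell and 22 in a plasmacytoid-marked cell. Xcr1/Clec9a cells held 1 Ly6c2 UMI in each library. The summed level of the 6 monocyte markers over all conventional dendritic cells was 2226 CPM in sgCPT1A, with 1 marker at 0, and 997 CPM in sgVC, with 2 at 0. Most of it was Plac8 alone, at 1545 CPM in sgCPT1A and 779 CPM in sgVC. Of its 705 UMIs in sgCPT1A, the plasmacytoid-marked cells held 64 and 39. Plac8 was also read in Xcr1/Clec9a cells, such as 46 UMIs in 1 sgVC cell. Chil3 had 0 UMIs in both libraries, and Fn1 was lower in sgCPT1A, with 3 UMIs against 19 in sgVC. Whether the Cd209a cells are dendritic cells by lineage or came from monocytes was not tested.

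Markers of other cell types were found in both libraries, some higher in sgCPT1A and others in sgVC. In sgCPT1A, 2 cells held 53 and 72 UMIs of the plasmacytoid genes Siglech, Ccr9, Cox6a2 and Klk1, and 1 Xcr1/Clec9a cell held the neutrophil genes S100a8 and S100a9 at 1.64% of its UMIs. No sgVC cell was marked in either way. The 6 plasmacytoid markers summed to 561 CPM in sgCPT1A, with 0 markers at 0, against 89.7 CPM in sgVC with 2 at 0. The 6 neutrophil markers summed to 1378 CPM in sgCPT1A, with 1 at 0, against 17.9 CPM in sgVC with 2 at 0. Values without these 3 marked cells are given below as values in the other 29 sgCPT1A cells. Of the 5 basophil and mast cell markers, all were at 0 in both libraries. The 7 T cell markers summed to 2 UMIs in sgCPT1A and 20 in sgVC, and the 5 natural killer markers to 1 and 8 UMIs. The 6 B cell markers summed to 53 and 47 UMIs, of which Ighm gave 52 and 47. The 9 macrophage markers summed to 152 UMIs in sgCPT1A and 105 in sgVC, the 6 migratory markers to 41 and 33, the 5 tumour markers to 20 and 102, the 6 fibroblast markers to 42 and 12, and the 4 endothelial markers to 13 and 3.

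The rule's own genes were used to split the cells into Xcr1/Clec9a and Cd209a subsets, so the split itself is a description. Xcr1 or Clec9a without Cd209a was seen in 10 of 32 cells in sgCPT1A, or 31.2% (16.1 to 50.01), and in 37 of 68 in sgVC, or 54.4% (41.9 to 66.5). Cd209a without Xcr1 or Clec9a was seen in 18 cells in sgCPT1A, or 56.2% (37.7 to 73.6), and in 29 in sgVC, or 42.6% (30.7 to 55.2). The ratio of the Xcr1/Clec9a shares, -0.80 on the log2 scale, had an interval of -1.97 to 0.24. Only 1 cell in each library had markers of both sides, and the sgCPT1A one was a plasmacytoid-marked cell. Neither side was seen in 3 cells in sgCPT1A and 1 in sgVC, and these 4 cells each held 16 to 41 UMIs of Irf8.

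**Figure D1:**
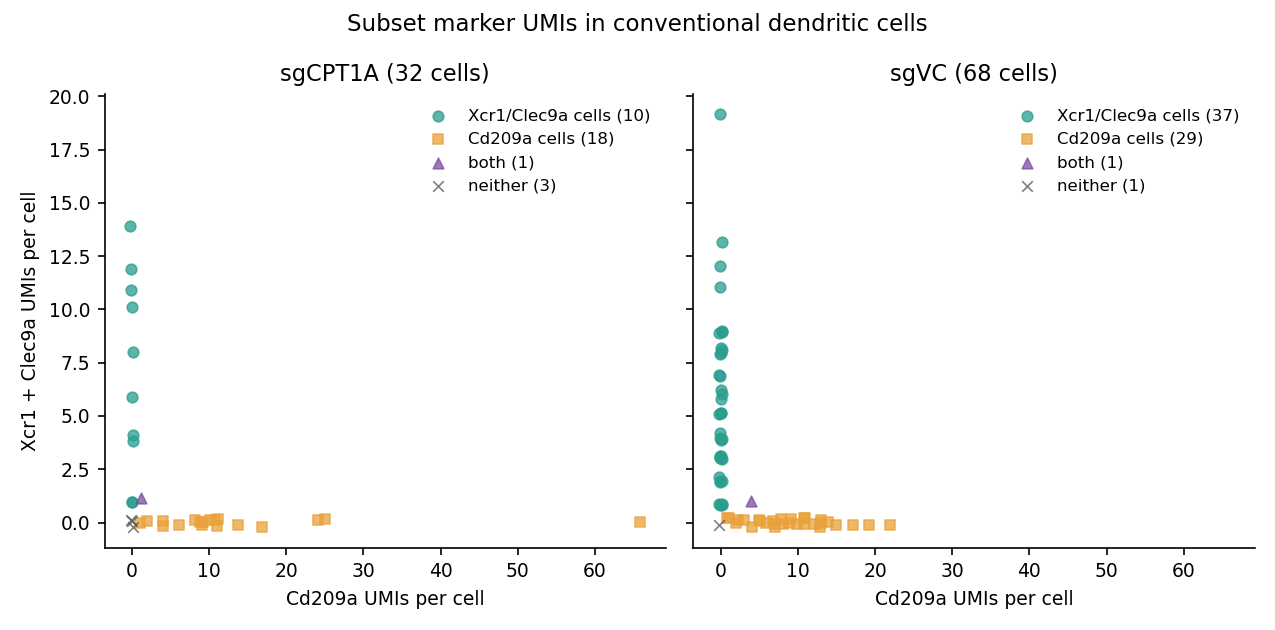
UMIs of Xcr1 plus Clec9a (vertical axis) against UMIs of Cd209a (horizontal axis) in each conventional dendritic cell, sgCPT1A on the left and sgVC on the right, with small random shifts so that points can be told apart. Cells lie along either axis, and the 1 cell with both kinds of transcript in each library lies near the corner.

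Genes that played no part in choosing the cells split along the same line in both libraries. Of 2596 genes with at least 20 UMIs in each library, 84 (3.24%) were at least 2-fold higher in Xcr1/Clec9a than in Cd209a cells in both libraries and 178 (6.86%) were at least 2-fold lower in both. These counts did not leave out the few genes that chose and split the cells, whereas the list counts that follow did. The list of known Xcr1/Clec9a subset genes had 10 of 11 measured members on the higher side, and the list of known Cd209a subset genes had 13 of 15 on the lower side. The subsets of a library share that library, so this is the same sign seen in 2 libraries and no test.

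Irf8, the transcription factor on which the Xcr1 type depends (chr8:120736358-120756694, GRCm38, plus strand), stood at 1957 CPM in Xcr1/Clec9a cells and 144 CPM in Cd209a cells of sgCPT1A, and at 2370 and 94.4 CPM in those of sgVC. Its log2 ratio was 3.77 in sgCPT1A and 4.65 in sgVC. At least 5 Irf8 UMIs were found in 9 of 10 Xcr1/Clec9a cells in sgCPT1A and 37 of 37 in sgVC, against 1 of 18 and 0 of 29 Cd209a cells. Itgae, the CD103 integrin chain of this type in tissues, had 37 UMIs in Xcr1/Clec9a cells and 1 in Cd209a cells of sgCPT1A, and 156 and 1 in those of sgVC. Rab7b, a small GTPase of late endosomes, had 42 UMIs in Xcr1/Clec9a cells and 0 in Cd209a cells of sgCPT1A, and 97 and 0 in those of sgVC. With a floor of 3 counts per library for 0, Rab7b was at least 26.4-fold higher in sgCPT1A and at least 20.6-fold higher in sgVC.

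Some genes for handling captured material were on the Xcr1/Clec9a side as well, but most such genes that differed were not. Of 15 measured members of the uptake, lysosome and efferocytosis list, 2 were on this side in both libraries and 8 on the Cd209a side. Ppt1, a lysosomal thioesterase, had a log2 ratio of 3.54 in sgCPT1A and 4.19 in sgVC, and Mpeg1, a pore-forming protein of phagocytes, 3.17 and 4.38. Wdfy4, which is needed for cross-presentation, stood at 648 CPM in Xcr1/Clec9a and 185 CPM in Cd209a cells of sgCPT1A, and 631 and 127 CPM in those of sgVC. Tlr3, the sensor of double-stranded RNA, had 10 UMIs in Xcr1/Clec9a cells and 1 in Cd209a cells of sgCPT1A, and 45 and 0 in those of sgVC. Cadm1, an adhesion molecule of this type, had 28 and 5 UMIs in sgCPT1A and 60 and 0 in sgVC. The rest of the rule's 12 genes on this side were Klf2, Sass6, Rtl8b, Tbc1d8, Pik3cb and Sdad1, with log2 ratios from 2.52 (Sdad1 in sgVC) to 5.16 (Rtl8b in sgCPT1A). Of the measured list members, Ifi205 alone missed the 2-fold mark, at 0.33 in sgCPT1A and 0.71 in sgVC.

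On the Cd209a side stood genes of phagocytes and of the Sirpa type. Sirpa, the receptor for CD47, had 0 UMIs in Xcr1/Clec9a cells and 68 in Cd209a cells of sgCPT1A, and 0 and 59 in those of sgVC, at least 12.03-fold lower in sgCPT1A and 30.9-fold lower in sgVC. Csf1r, the receptor for macrophage colony-stimulating factor, had 0 and 27 UMIs in sgCPT1A and 0 and 28 in sgVC. Itgam, the CD11b chain, had 0 and 78 UMIs in sgCPT1A and 0 and 33 in sgVC. Of the subsets, only Cd209a cells held UMIs of these 3 genes. S100a4, a calcium-binding protein, was at 0 UMIs in the Xcr1/Clec9a cells and 3430 CPM in the Cd209a cells of sgCPT1A, and at 41.6 and 2476 CPM in those of sgVC. The lectin gene Cd209d had 0 and 21 UMIs in sgCPT1A and 0 and 106 in sgVC. Ccl9, Clec4a3, Cybb, Dmkn and Pltp were also at 0 in the Xcr1/Clec9a cells of both libraries, with 22 to 96 UMIs in Cd209a cells, and Capg and Cdh1 were at 0 in sgCPT1A and at 3 UMIs each in sgVC. The lectins Mgl2 and Clec10a, common in the type, stood at 1318 and 461 CPM in Cd209a cells of sgCPT1A and 1956 and 544 CPM in those of sgVC. The 2 measured members of this list that missed the 2-fold mark were Notch2, at -0.09 in sgCPT1A and 0.93 in sgVC, and Klf4, at -1.19 and -0.31. Clec12a, with too few UMIs to be measured in both libraries, had 9 UMIs in Xcr1/Clec9a cells and 3 in Cd209a cells of sgCPT1A, and 49 and 2 in those of sgVC.

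**Figure D2:**
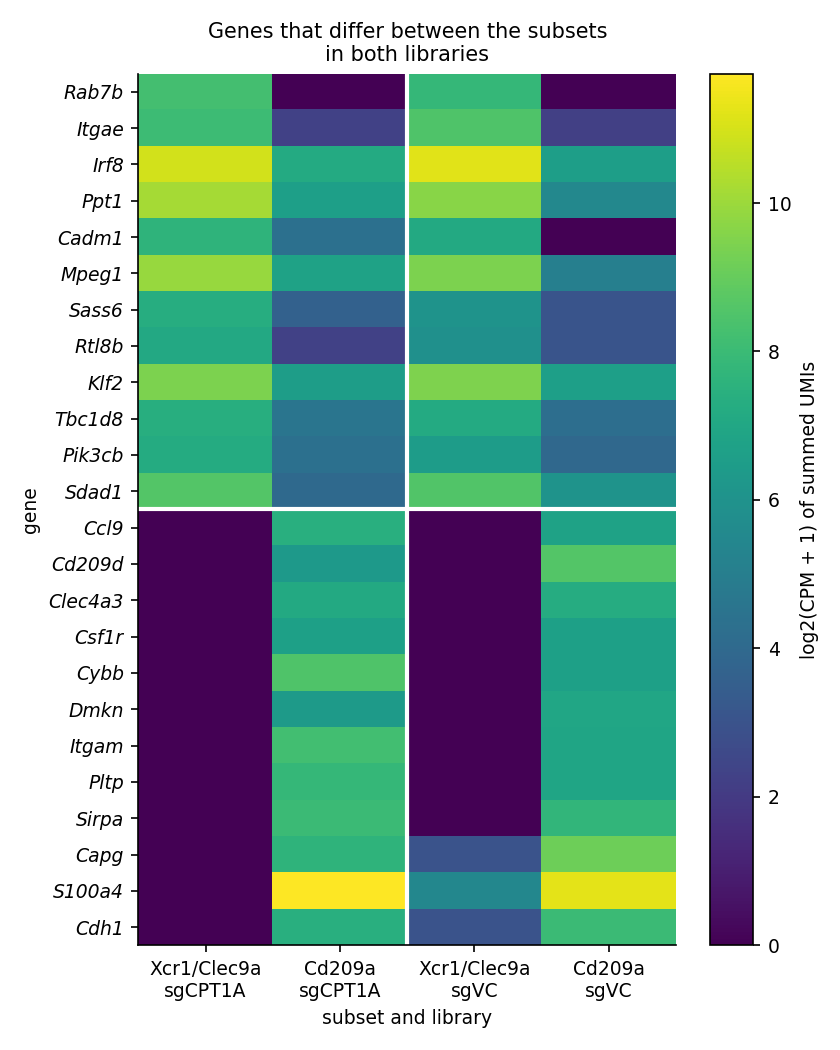
Level, as log2(CPM + 1) of UMIs summed over cells, of the 12 genes on each side with the largest difference between subsets in both libraries, in Xcr1/Clec9a and Cd209a cells of sgCPT1A (left pair of columns) and sgVC (right pair). The upper 12 rows are brighter in both Xcr1/Clec9a columns and the lower 12 in both Cd209a columns, and Ccl9, Csf1r, Cybb, Itgam and Sirpa are at 0 in both Xcr1/Clec9a columns.

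The comparison between tumours sums each library's cells. Of 5689 genes with at least 20 UMIs over both libraries, 425 (7.47%) were at least 2-fold higher and 456 (8.02%) at least 2-fold lower in sgCPT1A than in sgVC dendritic cells. The median log2 ratio over these genes was -0.04. Genes passed that minimum more easily where they were high, and lists are therefore read beside these background shares. In the other 29 sgCPT1A cells, 388 of 5552 genes (6.99%) were higher and 479 (8.63%) lower. Because the subsets are in different proportion in the 2 libraries, ratios within each subset are given with the pooled ones for some of the lists and genes. The Xcr1/Clec9a subset list had 0 of 15 measured members higher, 3 lower (Naaa, Tlr3 and Itgae) and a median of -0.52, or -0.12 within Xcr1/Clec9a cells. The Cd209a subset list had 6 of 19 higher, 2 lower and a median of 0.61, or 0.09 within Cd209a cells. The shared dendritic cell list had 1 of 12 higher, 0 lower and a median of 0.24.

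Genes induced by type I interferon, the antiviral cytokines that also license dendritic cells to prime T cells, were higher in sgCPT1A. Of 30 measured list members (of 40), 14 were at least 2-fold higher and 0 at least 2-fold lower, with a median log2 ratio of 0.99. The median was 1.14 over 21 genes within Xcr1/Clec9a cells, 0.67 over 26 within Cd209a cells, and 1.01 in the other 29 sgCPT1A cells, where 15 of 30 were at least 2-fold higher. All other kept cells had a median of 1.99 for the same list, and migratory dendritic cells -0.13 over 23 members. The list was therefore also higher outside the conventional dendritic cells, and its median in migratory cells lay near 0. With every cell thinned to 2000 UMIs, 4 members were at least 2-fold higher. Fewer genes reach the minimum at that depth and the number measured is not given here, so this count cannot be set beside 14 of 30.

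Bst2, tetherin, which holds budding viruses at the cell surface, showed the difference in both subsets. It had 421 CPM in sgCPT1A (363 to 485; 28 of 32 cells) and 89.7 CPM in sgVC (69.2 to 114; 32 of 68 cells), a log2 ratio of 2.23 (1.82 to 2.66). Within Xcr1/Clec9a cells it had 285 CPM in sgCPT1A and 64.7 CPM in sgVC, and within Cd209a cells 400 and 113 CPM. Without the marked cells the ratio was 1.79, Bst2 being also a plasmacytoid gene. In all other kept cells Bst2 was at 201 CPM in sgCPT1A and 170 CPM in sgVC. MHC class II-high macrophages held it at 648 and 154 CPM, and migratory dendritic cells at 156 and 119 CPM.

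Irf7, the factor that amplifies interferon transcription, was at 340 CPM in sgCPT1A and 93.8 CPM in sgVC, with log2 ratios of 1.86 (1.44 to 2.29) pooled, 1.99 in Xcr1/Clec9a cells, 1.92 in Cd209a cells and 1.66 in the other 29 cells. Ifi27l2a, an interferon-induced mitochondrial protein gene, was at 1538 CPM in sgCPT1A and 382 CPM in sgVC (2.01, 1.81 to 2.21). All other kept cells held Ifi27l2a at 963 and 119 CPM. Ifi44 was at 149 CPM in sgCPT1A and 34.5 CPM in sgVC (2.11, 1.43 to 2.83), while all other kept cells held it at 28.5 and 28.9 CPM. MHC class II-high macrophages held Ifi44 at 154 CPM in sgCPT1A and 97.7 CPM in sgVC, and Irf7 at 429 and 134 CPM. Ifi209, of a DNA-sensing family whose members have similar sequences and can share reads, was at 107 CPM in sgCPT1A and 23.5 CPM in sgVC. Slfn5, Rsad2, Phf11b, Parp14 and Ifi204 had log2 ratios between 1.02 and 1.39. Isg15, the ubiquitin-like modifier, missed the 2-fold mark at 399 CPM in sgCPT1A and 251 CPM in sgVC (0.67, 0.36 to 0.97). All other kept cells held Isg15 at 2373 and 182 CPM. Ifitm3, the best-read member, was at 2406 CPM in sgCPT1A and 1217 CPM in sgVC (0.98), but at 363 and 608 CPM within Xcr1/Clec9a cells (-0.74).

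The promoters of these genes were searched for GAAANNGAAA on both strands, the core of the element bound by interferon-activated factors, in RefSeq promoter windows of 300 bases around each gene's start on GRCm38.p6. Of the 14 genes at least 2-fold higher in sgCPT1A, 9 matched a window and 4 of these held the core (44.4%), as did 6 of 13 (46.2%) of the measured list members under 2-fold, and 1079 of 27025 genes with a window (3.99%). The 4 are shown because they are the higher genes that carry the core, which is in capitals (as TTTCNNTTTC where it lies on the opposite strand, and with 2 overlapping matches in Bst2). Matches are a description of the letters only. The windows are chr8:71537423-71537722 on the minus strand for Bst2, chr11:82951852-82952151 on the plus strand for Slfn5, chr14:59341281-59341580 on the minus strand for Phf11b and chr12:26456403-26456702 on the minus strand for Rsad2, each written 5′ to 3′ along its gene.
Bst2: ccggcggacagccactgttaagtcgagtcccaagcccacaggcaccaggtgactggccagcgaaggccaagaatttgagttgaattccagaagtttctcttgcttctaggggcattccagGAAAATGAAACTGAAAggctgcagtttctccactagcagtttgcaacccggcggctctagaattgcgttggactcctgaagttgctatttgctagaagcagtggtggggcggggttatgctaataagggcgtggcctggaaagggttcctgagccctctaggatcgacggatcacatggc
Slfn5: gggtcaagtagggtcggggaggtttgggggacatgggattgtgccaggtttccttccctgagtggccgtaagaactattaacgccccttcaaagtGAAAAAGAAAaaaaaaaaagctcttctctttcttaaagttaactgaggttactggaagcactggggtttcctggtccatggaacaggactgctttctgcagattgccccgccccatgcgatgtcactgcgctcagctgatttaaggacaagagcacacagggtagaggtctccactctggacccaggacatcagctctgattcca
Phf11b: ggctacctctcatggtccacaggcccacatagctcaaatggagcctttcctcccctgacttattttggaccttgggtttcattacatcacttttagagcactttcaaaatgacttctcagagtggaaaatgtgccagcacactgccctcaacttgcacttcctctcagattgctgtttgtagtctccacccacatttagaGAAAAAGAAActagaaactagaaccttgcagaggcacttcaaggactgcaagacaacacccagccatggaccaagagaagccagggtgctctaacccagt
Rsad2: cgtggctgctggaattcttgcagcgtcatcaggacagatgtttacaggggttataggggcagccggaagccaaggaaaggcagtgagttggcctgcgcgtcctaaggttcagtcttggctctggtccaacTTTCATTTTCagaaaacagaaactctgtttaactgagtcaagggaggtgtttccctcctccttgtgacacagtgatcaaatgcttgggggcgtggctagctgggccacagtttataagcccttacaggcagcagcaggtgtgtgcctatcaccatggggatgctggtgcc

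Interferon beta itself was read in these cells. Ifnb1 had 56 UMIs in 8 of 32 cells in sgCPT1A and 39 UMIs in 14 of 68 cells in sgVC, or 123 CPM (92.7 to 159) and 53.8 CPM (38.3 to 73.6). The log2 ratio was 1.19 (0.57 to 1.82), with 2.08 in Xcr1/Clec9a and 0.39 in Cd209a cells, and 1 cell gave 35.7% of the sgCPT1A UMIs. All other kept cells of the libraries were at 4.54 CPM in sgCPT1A and 24.5 CPM in sgVC. The level was not particular to conventional dendritic cells. Migratory dendritic cells were at 0 CPM in sgCPT1A and 318 CPM in sgVC, and MHC class II-high macrophages at 253 and 446 CPM. In both of these the sgCPT1A value was the lower one. The cGAS-STING list, which covers sensing of cytosolic DNA up to interferon, had 4 of 9 measured members higher, 0 lower and a median of 0.91. Its median was 0.37 over 5 members within Xcr1/Clec9a cells and 0.59 over 7 within Cd209a cells. The 4 higher members were Irf7, Tbk1, Ifi204 and Ifnb1. The sensor Cgas was at 19.7 CPM in sgCPT1A and 19.3 CPM in sgVC, and the adaptor Sting1 at 65.7 and 53.8 CPM, with intervals that overlap for both.

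Genes induced by interferon gamma, the cytokine of T and natural killer cells, did not stand out as a list, with 2 of 14 measured members higher, 1 lower and a median of 0.44. Cxcl9, which attracts Cxcr3-bearing T cells, was at 519 CPM in sgCPT1A and 200 CPM in sgVC, but 1 cell gave 84.4% of the sgCPT1A UMIs. Cxcl10, of the same kind, was at 1056 CPM in sgCPT1A and 563 CPM in sgVC (0.91, 0.71 to 1.10). Within Cd209a cells it was at 1658 CPM in sgCPT1A and 995 CPM in sgVC, and within Xcr1/Clec9a cells at 299 and 305 CPM. Igtp, an interferon-induced GTPase gene, was lower at 19.7 CPM in sgCPT1A and 60.7 CPM in sgVC (-1.62, -2.84 to -0.57).

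**Figure D3:**
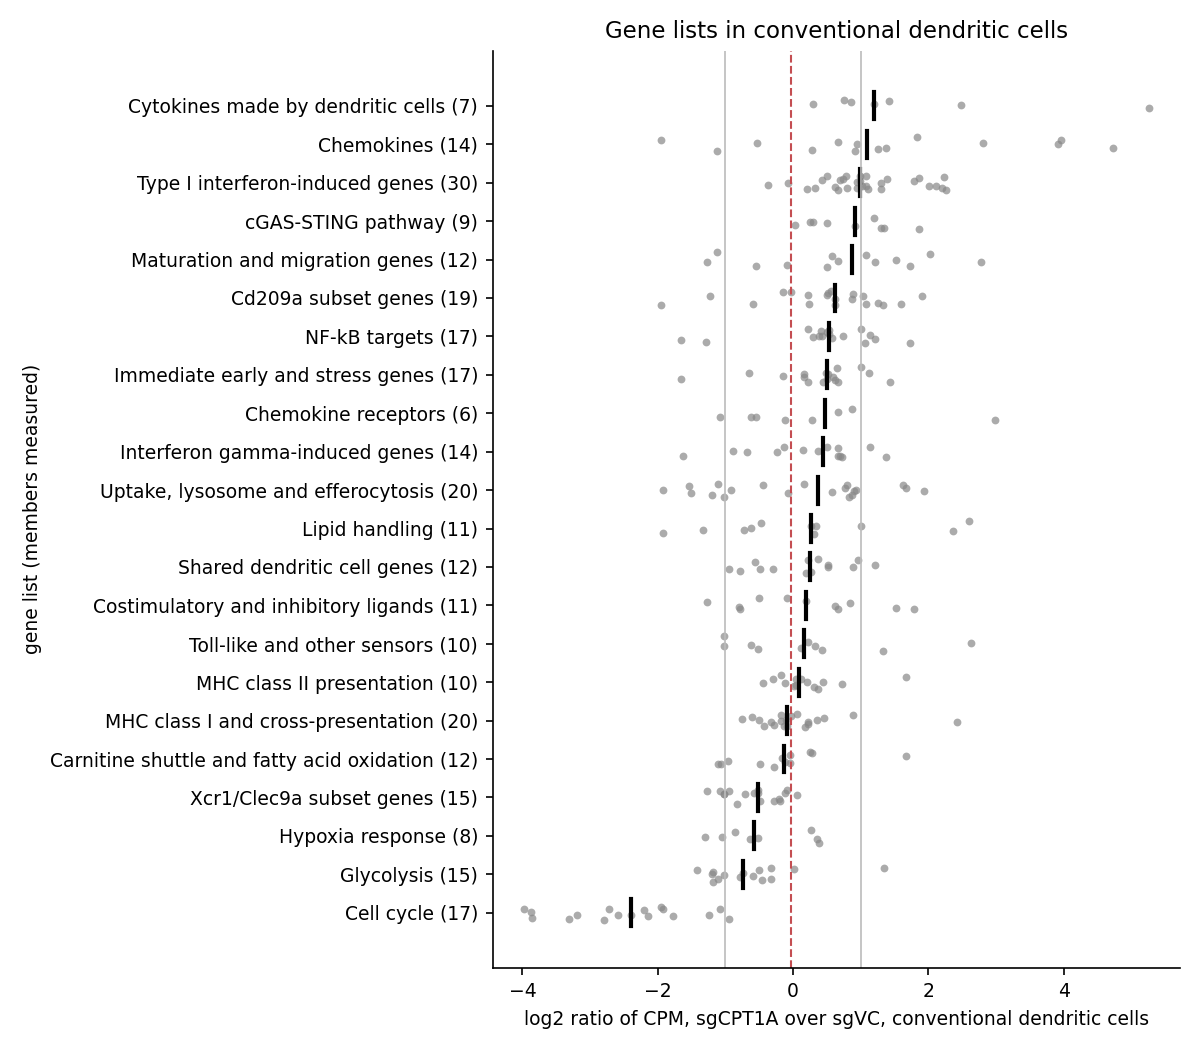
Log2 ratios of CPM, sgCPT1A over sgVC, in conventional dendritic cells for the measured members (grey points) of 22 gene lists, with the list median as a black bar, the all-gene median of -0.04 as a dashed red line and 2-fold marks as grey lines. Members with 0 UMIs in a library are placed at their bound. Type I interferon-induced genes lie mostly above 0 with a median of 0.99, and cell cycle genes lie furthest below 0.

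Presentation genes were close between the tumours. Of 20 measured members for MHC class I and cross-presentation, 1 was higher (Cybb, described below) and 0 lower, with a median of -0.10. H2-D1 was at 2722 CPM in sgCPT1A and 2340 CPM in sgVC, B2m at 1830 and 1571 CPM, and H2-K1 at 1098 and 1238 CPM. The immunoproteasome subunit Psmb9 was at 629 CPM in sgCPT1A and 1062 CPM in sgVC (-0.76, -0.96 to -0.56). The MHC class II list, leaving out the genes that chose the cells, had 1 of 10 measured members higher, 0 lower and a median of 0.08. Ciita, the master activator of class II transcription, was at 267 CPM in sgCPT1A and 207 CPM in sgVC (0.37, 0.01 to 0.72), and the peptide-loading chain H2-DMa at 898 and 1104 CPM (-0.30).

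Costimulation and maturation genes were mixed. The maturation and migration list had 6 of 12 measured members higher, 2 lower and a median of 0.87, and 14 of its 26 genes were not measured, among them 4 that the rule used. Cd40, through which T cells license dendritic cells, had 27 UMIs in sgCPT1A and 15 in sgVC (1.52, 0.55 to 2.53). Marcksl1, a membrane-cytoskeleton protein gene, was at 346 CPM in sgCPT1A and 85.5 CPM in sgVC (2.02), and all other kept cells held it at 2042 and 239 CPM. Cd86, a ligand of CD28, was at 153 CPM in sgCPT1A and 163 CPM in sgVC (-0.09, -0.53 to 0.35). Pdcd1lg2, the inhibitory ligand PD-L2, was at 28.5 CPM in sgCPT1A and 69.0 CPM in sgVC (-1.28, -2.28 to -0.37). The costimulatory and inhibitory ligand list as a whole had 2 of 11 higher, 1 lower and a median of 0.20. Samsn1 and Birc3 were higher in both subsets, with pooled ratios of 2.78 and 1.73, and the other kept cells were at 449 and 142 CPM of them in sgCPT1A and 58.3 and 21.98 CPM in sgVC.

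Several inflammatory cytokines and chemokines were higher in sgCPT1A, and so were those described here in the rest of its library. The chemokine list had 7 of 14 measured members higher and 2 lower with a median of 1.10, and the cytokine list 4 of 7 higher and 0 lower with a median of 1.19. Within Xcr1/Clec9a cells these medians were 0.82 for chemokines and 0.68 for cytokines, and within Cd209a cells 0.64 and 1.10. Cxcl2, a chemokine for neutrophils, was at 2459 CPM in sgCPT1A and 159 CPM in sgVC (3.95), and 1 sgCPT1A cell gave 51.0% of its UMIs. In all other kept cells Cxcl2 was at 35273 CPM in sgCPT1A and 1630 CPM in sgVC. Il1a had 72 UMIs in 4 sgCPT1A cells, of which 1 Cd209a cell gave 88.9%, and 0 in sgVC. Il1b was at 1792 CPM in sgCPT1A and 673 CPM in sgVC (1.41, 1.25 to 1.58), beside 7761 and 556 CPM in all other kept cells. Free RNA in the droplets carries such transcripts, and over all 32 sgCPT1A cells S100a9, which dendritic cells should lack, stood at 5.72% of its level in the rest of the library. Cxcl2 stood at 6.97% of its level there, Ccl3 at 7.18%, Il1a at 10.3%, Il1b at 23.1% and Ccl4 at 48.9%. The fibroblast gene Col3a1 stood at 0.47%, and 1 cell gave 66.9% of the S100a9 UMIs. Without the marked cells, of which 1 was marked by S100a8 and S100a9 themselves, the shares of the level in the rest of the library were 2.08% for S100a9 and 1.48% for S100a8. They were 5.81% for Cxcl2 and 5.08% for Ccl3. The part of free RNA in these ratios was not tested.

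Signalling and sensing lists showed smaller differences. NF-kB target genes, which inflammatory receptors switch on, had 5 of 17 measured members higher, 2 lower and a median of 0.53. Their best-read member Nfkbia, the inhibitor of NF-kB, was at 2064 CPM in sgCPT1A and 937 CPM in sgVC (1.14), beside 8411 and 1918 CPM in all other kept cells. Immediate early and stress genes had 2 of 17 higher, 1 lower and a median of 0.50. Toll-like and other sensors had 2 of 10 higher, 2 lower and a median of 0.16, with Tlr2, a sensor of bacterial lipoproteins, at 31 UMIs in sgCPT1A and 8 in sgVC. Chemokine receptors had 1 of 6 higher, Cxcr4, the receptor for Cxcl12, with 35 UMIs in sgCPT1A and 7 in sgVC, 0 lower and a median of 0.48.

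Ccl4, an inflammatory chemokine, was the best-read chemokine and differed little, at 3269 CPM in sgCPT1A and 2686 CPM in sgVC (0.28, 0.19 to 0.38). Ccl17, which attracts Ccr4-bearing T cells, was lower, with 19 UMIs in 3 cells in sgCPT1A and 117 UMIs in 11 cells in sgVC. Nearly all sgVC Ccl17 UMIs, 115, were in Cd209a cells, against 15 of the 19 in sgCPT1A, and the ratio within those cells was -2.88. Migratory dendritic cells held Ccl17 at 64.9 CPM in sgCPT1A and 1293 CPM in sgVC. Ccl5 was lower as well at 65.7 CPM in sgCPT1A and 143 CPM in sgVC (-1.13, -1.76 to -0.53).

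Of the genes furthest apart between the libraries, several on the higher side lay in Cd209a cells. Ffar2, a receptor for short-chain fatty acids, had 59 UMIs in 9 cells in sgCPT1A and 9 UMIs in 7 cells in sgVC, all of them in Cd209a cells (2.77 there). Cybb, the catalytic chain of the phagocyte NADPH oxidase, was at 243 CPM in sgCPT1A and 45.5 CPM in sgVC (2.42, 1.85 to 3.02), and within Cd209a cells at 363 and 102 CPM. Lst1, an immune transmembrane protein gene, was at 136 CPM in sgCPT1A and 30.4 CPM in sgVC (2.16), and 2.46 within Cd209a cells. In sgCPT1A, 1 cell gave 40.3% of the Lst1 UMIs. Ifitm6 was at 103 CPM in sgCPT1A and 20.7 CPM in sgVC (2.32). Dusp2, a phosphatase that switches off MAP kinases, and Foxp1, a transcription factor, were higher in both subsets, with pooled ratios of 2.41 and 2.07. Most of these genes were also higher in the rest of the sgCPT1A library. In all other kept cells the log2 ratios were 2.13 for Ffar2, 2.28 for Cybb, 2.56 for Lst1, 2.59 for Ifitm6 and 2.32 for Dusp2, but 0.08 for Foxp1. The nuclear RNA 7SK was at 337 CPM in sgCPT1A and 40.0 CPM in sgVC, beside 352 and 12.2 CPM in all other kept cells.

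On the lower side, Cd209e and Mmp12 were read almost wholly in sgVC. Cd209e, a lectin gene related to Cd209a whose reads may be split with its relatives (chr8:3847965-3854309, minus strand), had 2 UMIs in 1 cell in sgCPT1A and 119 UMIs in 13 cells in sgVC (-5.23, -8.29 to -3.34). Mmp12, macrophage elastase, had 4 UMIs in 1 cell in sgCPT1A and 137 UMIs in 13 cells in sgVC (-4.43, -6.33 to -3.04). Plet1, a surface protein gene found in dendritic cells of barrier tissues, was at 210 CPM in sgCPT1A and 757 CPM in sgVC (-1.85), with -2.53 in Xcr1/Clec9a and -1.36 in Cd209a cells. It was read in 7 of 32 cells in sgCPT1A and 41 of 68 in sgVC. Cd9, a tetraspanin, was at 169 CPM in sgCPT1A and 545 CPM in sgVC (-1.69), and the survival genes Bcl2a1a, Bcl2a1b and Bcl2a1d, near-identical copies whose reads cannot be told apart with certainty, had ratios of -1.72, -1.66 and -1.29. Idi1, of sterol synthesis, and Eif4ebp1, a brake on translation, were at 28.5 and 21.9 CPM in sgCPT1A and at 105 and 106 CPM in sgVC. Plk2, a kinase, and Gnb4, a G protein subunit, had ratios of -2.06 and -1.70. In all other kept cells the log2 ratios were -2.83 for Idi1, -1.28 for Eif4ebp1, -0.32 for Cd9 and -0.18 for Plk2. They were 0.57 for Mmp12, 0.65 for Plet1, 0.88 for Gnb4 and 2.45 for Bcl2a1a. Cd209e was there at 0.087 CPM in sgCPT1A and 0.284 CPM in sgVC. The most similar cells differed from that mixture. Migratory dendritic cells held Bcl2a1b at 1265 CPM in sgCPT1A and 2598 CPM in sgVC, and Bcl2a1d at 1051 and 2186 CPM. MHC class II-high macrophages held Bcl2a1b at 132 and 743 CPM, and Bcl2a1d at 165 and 543 CPM. Plet1 was at 0 and 286 CPM in migratory cells.

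**Figure D4:**
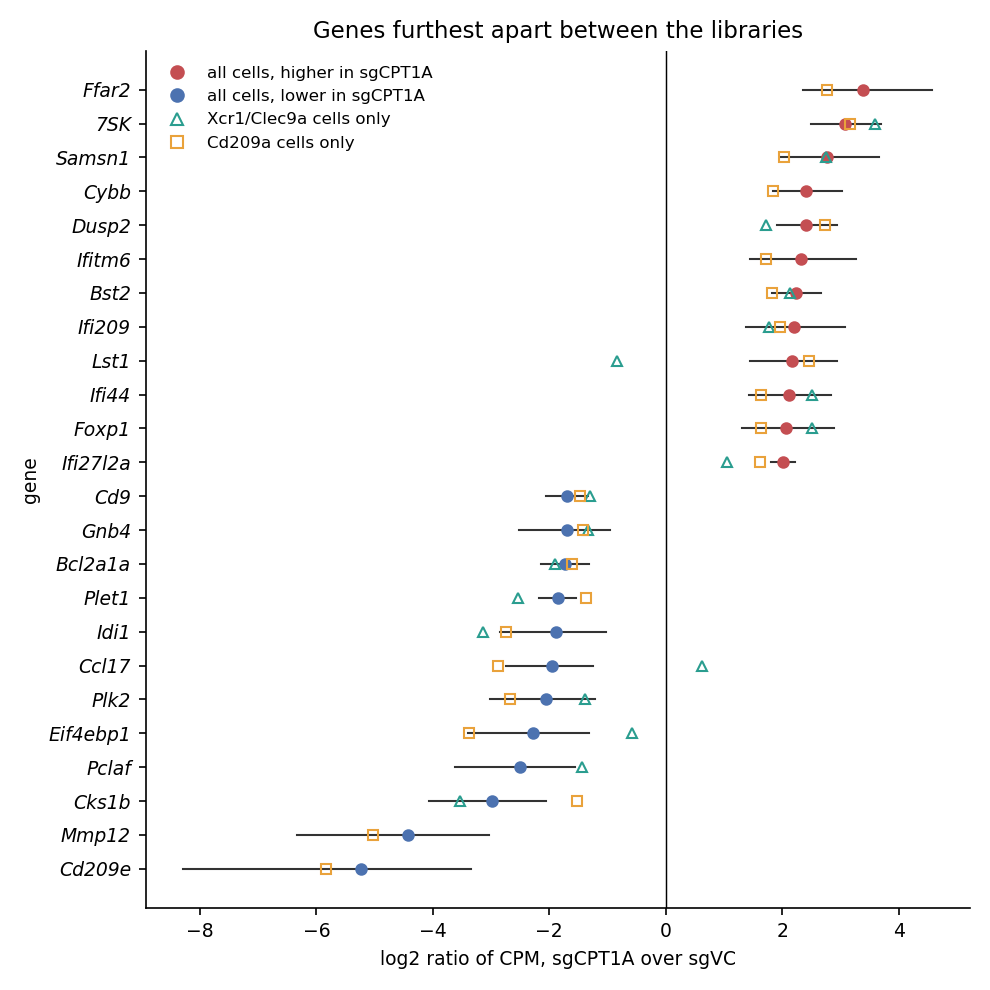
Log2 ratios of CPM, sgCPT1A over sgVC, for the 12 highest and 12 lowest named genes over all conventional dendritic cells (filled points, red where higher and blue where lower in sgCPT1A), with 95% intervals for counting error as lines and the ratios within Xcr1/Clec9a cells (triangles) and Cd209a cells (squares) where finite. Within Xcr1/Clec9a cells Lst1 lies at -0.84 and Ccl17 at 0.62, on the other side of 0 from their pooled values.

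Endocytic and lysosomal genes differed in both directions, with 3 of 20 measured members higher, 6 lower and a median of 0.36. The median was -0.23 within Xcr1/Clec9a cells and 0.41 within Cd209a cells. Cst3, cystatin C, a protease inhibitor abundant in the Xcr1 type, was the best-read lower gene at 9335 CPM in sgCPT1A and 21397 CPM in sgVC (-1.20, -1.25 to -1.15). It was lower within both subsets, at 17150 CPM in sgCPT1A and 30311 CPM in sgVC for Xcr1/Clec9a cells and 3312 and 7768 CPM for Cd209a cells. Lgals3, galectin-3, was at 1135 CPM in sgCPT1A and 2456 CPM in sgVC (-1.11), and at 370 and 2072 CPM within Xcr1/Clec9a cells. Fcgr2b, the inhibitory antibody receptor, was at 105 CPM in sgCPT1A and 305 CPM in sgVC (-1.54, -2.02 to -1.08). Ctsl, a lysosomal protease, was higher at 131 CPM in sgCPT1A and 34.5 CPM in sgVC (1.93).

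Glycolysis genes were lower in sgCPT1A. Of 15 measured members 6 were at least 2-fold lower and 1 higher, with a median of -0.74, of -0.79 within Xcr1/Clec9a and -1.21 within Cd209a cells. Gapdh was at 1185 CPM in sgCPT1A and 1792 CPM in sgVC (-0.60, -0.74 to -0.45), Ldha, lactate dehydrogenase, at 563 and 940 CPM (-0.74), and Tpi1, triose phosphate isomerase, at 151 and 348 CPM (-1.20). Aldoa, Pgk1, Pfkp, Pgam1 and the lactate exporter gene Slc16a3 were the other lower members, and Hk2, hexokinase 2, the higher one at 87.6 CPM in sgCPT1A and 34.5 CPM in sgVC. All other kept cells had a median of -0.95 for the list and migratory dendritic cells -1.10. The hypoxia response list had 2 of 8 lower, 0 higher and a median of -0.57.

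Cpt1a, the gene the guide targets in the tumour cells, was not lower in these host cells. It had 22 UMIs in 11 cells in sgCPT1A and 11 UMIs in 11 cells in sgVC, or 48.2 and 15.2 CPM (1.67, 0.56 to 2.86). The carnitine shuttle and fatty acid oxidation list had 1 of 12 measured members higher, Cpt1a, and 2 lower, Hadhb and Acadm, with a median of -0.14. In the lipid handling list, 3 of 11 were higher and 2 lower, with a median of 0.27. Within Xcr1/Clec9a cells that median was -0.34 over 6 members, and within Cd209a cells -0.12 over 9. The furthest member of the list, Abcg1, a cholesterol exporter, was at 92.0 CPM in sgCPT1A and 15.2 CPM in sgVC (2.60, 1.62 to 3.71).

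Cell cycle genes were lower in sgCPT1A. The list had 16 of 17 measured members at least 2-fold lower and 0 higher, with a median of -2.58, or -2.39 with Ccnb2, at 0 UMIs in sgCPT1A, put at its bound. Within Xcr1/Clec9a cells the median was -1.70 over 13 members. All other kept cells had a median of -2.47 for the list, and migratory dendritic cells 0.48 over 4 members. The list was therefore also lower outside the dendritic cells. The best-read members were Tubb5, a tubulin, at 390 CPM in sgCPT1A and 826 CPM in sgVC (-1.08), and Hmgb2, a chromatin protein, at 346 and 820 CPM (-1.24). Mki67, the proliferation antigen, had 4 UMIs in 2 cells in sgCPT1A and 63 UMIs in 11 cells in sgVC. A UMI of Mki67 or of Top2a, the topoisomerase of dividing cells, was read in 1 of 10 Xcr1/Clec9a cells in sgCPT1A and 13 of 37 in sgVC, with 8 and 118 such UMIs, and in 2 of 18 and 2 of 29 Cd209a cells. The 18 genes took 0.0658% of the UMIs of the median Xcr1/Clec9a cell in sgCPT1A and 0.0904% in sgVC, and at most 1.82% and 1.32%. In Cd209a cells the medians were 0.0680% in sgCPT1A and 0.126% in sgVC, and 6 sgVC cells lay above the highest sgCPT1A cell at 0.149%. With the cells that had a Mki67 or Top2a UMI left out, the list median was -0.51 with 0 members lower. Those genes belong to the list, so the smaller difference follows in part from the selection and is a description only. Within Cd209a cells the list median was -0.80 over 3 measured members with 0 lower. With every cell thinned to 2000 UMIs the median was -0.70 with 1 member lower. With at least 50 UMIs as the minimum 7 members were lower, and with at least 5 marker UMIs per cell the median was -4.88. The number of members measured under these settings is not given here, so their counts cannot be set beside 16 of 17. Cks1b and Pclaf, further division genes outside the list, had pooled ratios of -2.98 and -2.50, beside -4.36 and -2.94 in all other kept cells. Cks1b had 10 UMIs in 8 cells in sgCPT1A and 125 UMIs in 34 cells in sgVC, whereas all 10 Pclaf UMIs in sgCPT1A came from 1 cell.

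**Figure D5:**
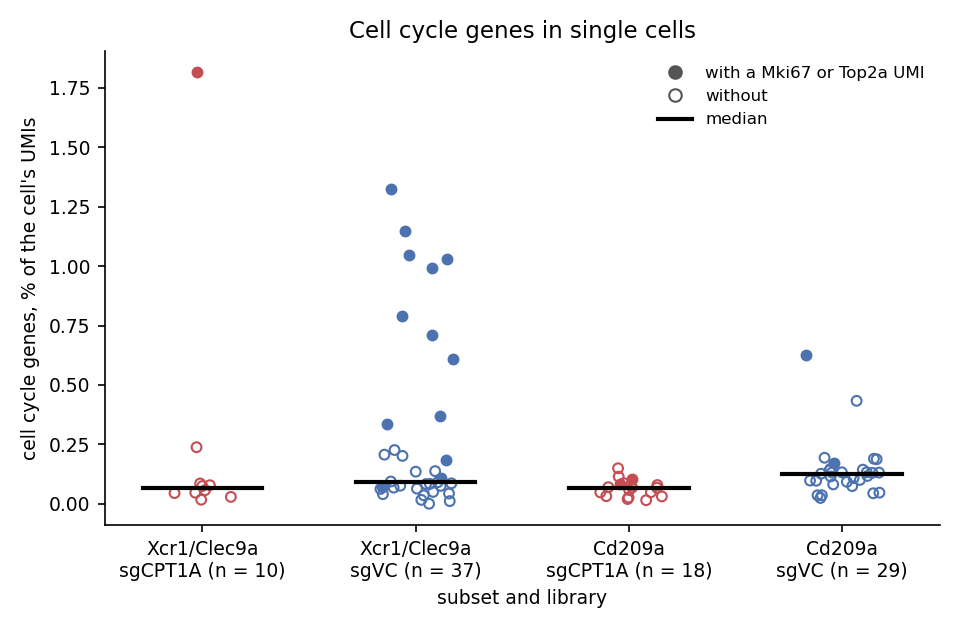
Share of each cell's UMIs that came from the 18 cell cycle genes (vertical axis, percent) in Xcr1/Clec9a and Cd209a cells of sgCPT1A (red) and sgVC (blue), filled where the cell had a Mki67 or Top2a UMI, with medians as black bars. The highest cell is an sgCPT1A Xcr1/Clec9a cell at 1.82%, and 13 of 37 sgVC Xcr1/Clec9a cells are filled.

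Migratory dendritic cells and MHC class II-high macrophages were the most similar cells compared, and the genes given here were picked for lying on the same side in both libraries. Other genes did not, such as Ctsl against migratory cells, with log2 ratios of 4.34 in sgCPT1A and -1.16 in sgVC. Compared with migratory dendritic cells they held more Naaa, a lysosomal amidase, at 1019 CPM against 6.49 CPM in sgCPT1A and 2058 against 243 CPM in sgVC. Septin3, Rab7b, Sdad1, Eps8, Ppt1 and Anxa1 lay on the same side, and so did H2-DMb1 at 879 against 123 CPM in sgCPT1A and 952 against 157 CPM in sgVC. They held less Fabp5, a fatty acid binding protein gene, at 46.0 against 4490 CPM in sgCPT1A and 116 against 3175 CPM in sgVC, and less Cd63, a tetraspanin of endosomes, at 10.96 against 1129 CPM in sgCPT1A and 26.2 against 953 CPM in sgVC. Socs2, Serpinb9, Tbc1d4 and Cd200 were lower than in migratory cells too. Compared with MHC class II-high macrophages, they held Arg1, arginase, at 0 against 2615 CPM in sgCPT1A and 2.76 against 1682 CPM in sgVC. Ccl8, Pf4, Ms4a7 and Ctsl were lower than in macrophages in both libraries. Plet1 had 0 UMIs in the macrophages of both libraries, and Napsa, an aspartic protease gene, was at 585 against 65.9 CPM in sgCPT1A and 534 against 39.6 CPM in sgVC. Only 12 migratory cells and 10 macrophages stood for sgCPT1A in these comparisons.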

How the data were processed

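Single-cell RNA was measured with 10x 3' libraries of whole dissociated tumours. The deposited matrices hold raw UMI counts that the authors made with Cell Ranger 7.1.0, per the file headers. GRCm38 and Seurat 4.1.0 are named in the submitters' processing notes. The annotation release is not given in the sources used here. A barcode was kept if it had 200 or more genes and no more than 20% of its UMIs from mitochondrial genes, which held for 6743 of 7198 in sgCPT1A and 9610 of 9890 in sgVC.

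Counts were summed per library over the cells, giving CPM with exact Poisson intervals, shares with exact Clopper-Pearson intervals and ratios with exact conditional binomial intervals, all at 95%. With 1 library per genotype there are no p-values, and the spread between mice is unknown. Genes with at least 20 UMIs were measured, a 2-fold difference was the mark, and a count of 0 was bounded by 3 counts per library. Xcr1/Clec9a cells had a UMI of either gene and none of Cd209a, and Cd209a cells the reverse. Genes were named as the 12 furthest on each side with at least 50 UMIs, 100 CPM in the higher library, a UMI in 10% of its cells there and 25% of the level in other kept cells. Subset genes were the 12 on each side with the largest smaller difference over both libraries. Up to 4 members per list were named by level or ratio, and further list members were chosen after their values were seen. The members and lists were chosen with earlier results of these data known. Doublets were not removed: Scrublet (scanpy 1.11.5) called 1 sgCPT1A barcode (0.0148%), a share at which it has not worked, and 291 sgVC barcodes (3.03%), with 0 among the dendritic cells. Alternatives changed the limits of the rule, the gene minimum, the scaling and the depth, and left out marked, shared or dividing cells. Interval code was tested on simulated data. Python 3.11.15, numpy 2.4.6, pandas 2.3.3, scipy 1.17.1 and matplotlib 3.10.9 were used.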

Additional observations from a re-analysis of the deposited data

Results flagged for a closer look

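Iigp1, an interferon-induced GTPase gene, lay on opposite sides in the subsets. Its log2 ratio, sgCPT1A over sgVC, was 1.26 in Xcr1/Clec9a cells, with 14 UMIs in sgCPT1A and 18 in sgVC, and -3.80 in Cd209a cells, with 2 and 29 UMIs. Read the other way, Xcr1/Clec9a over Cd209a, it was 3.72 in sgCPT1A and -1.34 in sgVC. It was seen in 3 sgCPT1A cells and 11 sgVC cells. Serpina3g, a protease inhibitor gene, had log2 ratios of Xcr1/Clec9a over Cd209a cells of -3.17 in sgCPT1A, with 1 and 17 UMIs, and 1.39 in sgVC, with 37 and 9 UMIs. It was seen in 4 sgCPT1A cells and 11 sgVC cells. With 1 library per genotype the difference was not tested for either gene.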

How the results depend on the processing

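Of 866 values under alternatives, 794 were classed as the same, 70 as moved and 2 as turned round. The 2 were Lst1 at -0.84 and Ccl17 at 0.62, both within Xcr1/Clec9a cells. The same means inside the counting interval of the main value or, for a count, near the main count. A gene or list could turn round only if its main ratio passed the 2-fold mark, and a share ratio only if its interval left out 0. Smaller ratios that changed sign are not among the 2. The Cd209a subset list, for example, had a median of 0.61 over all cells and -1.29 over 5 members within Xcr1/Clec9a cells. With each cell thinned to 2000 UMIs, which leaves out 1630 sgCPT1A and 2215 sgVC cells, the ratio of shares among cells with few tumour genes was -2.20 (at least 2 marker UMIs), and the Xcr1/Clec9a share 15.6% in sgCPT1A and 40.3% in sgVC. Thinning left 91 genes higher and 159 lower in sgCPT1A, 4 interferon-induced members higher, 0 glycolysis members higher, and 1 cell cycle member lower with a median of -0.70. Between subsets it left 16 genes higher and 36 lower, with 4 Xcr1/Clec9a and 3 Cd209a list members. Thinned cells have fewer UMIs, so fewer genes reach the minimum. The numbers of genes and members measured under each alternative are not given here, so the counts in this paragraph carry no share. With at least 1 UMI as the minimum, 2672 genes were higher and 3042 lower, and with at least 50, 155 and 175, with 7 cell cycle members lower. Within Xcr1/Clec9a cells 194 genes were higher, and glycolysis had 0 members higher and 3 lower. With at least 5 marker UMIs glycolysis had 3 members lower, and the cell cycle median was -4.88. Within Cd209a cells that median was -0.80 with 0 members lower. Without cells with a Mki67 or Top2a UMI it was -0.51 with 0 lower, and glycolysis had 0 higher. Mki67 and Top2a are cell cycle list members, so that smaller cell cycle difference follows in part from the selection. The causes of the other shifts were not tested. No paired analysis was possible because each genotype had 1 library with a file.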
